A study of Mus musculus with 10 samples.

Results

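H3f3a and H3f3b are the mouse genes that encode histone H3.3, and they were taken by name as 2 of the 20325 genes of an RNA-Seq count table. No other gene of the table had a symbol starting with H3f3. PolyA RNA of mouse embryonic stem cells (mESCs) was sequenced in 10 libraries from 5 lines, with 2 replicate libraries per line. Daxx-/- cells (129/SvEv strain) lack DAXX, a histone chaperone, and Daxx-/-;WT cells are the same line with FLAG-tagged murine DAXX from a lentivirus with an EF1 promoter. In other experiments the paper used Daxx-/- mESCs with an HA tag engineered into endogenous H3f3b. Whether the sequenced Daxx lines carry this tag is not given in the sources used here. H3.3 KO cells (129 x C57BL/6J strain) were made to lack H3.3, and this line was also transduced with lentiviral, FLAG-HA-tagged H3.3, either WT (H3.3 KO;WT) or mutant (H3.3 KO;L126A-I130A). The mutant is spelled L126A-L130A in the labels. Transduced cells were selected with puromycin and cultured as populations for a few weeks, and all lines were grown without feeder cells in 2i medium with LIF. The DAXX lines and the H3.3 lines differ in strain, so genotype and strain cannot be told apart where they are compared, and no line with intact Daxx and H3.3 genes was analysed here.

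H3.3 is the replacement variant of histone H3. It is made through the whole cell cycle from H3f3a and H3f3b, which have introns and give polyadenylated mRNA, whereas the canonical H3 proteins come from clustered, intron-less genes whose mRNA is made in S phase and normally ends in a stem-loop without a polyA tail. DAXX, together with ATRX, places H3.3 at short tandem repeats and telomeres, and the HIRA complex (HIRA, UBN1 or UBN2, CABIN1) places it at genes. At endogenous retroviruses, the paper found placement of H3.3 to depend on DAXX but not on ATRX. Residues L126 and I130 lie at the surface where the H3 molecules of a nucleosome meet.

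In GRCm38, H3f3a (ENSMUSG00000060743) covers chr1:180800832-180813943 and H3f3b (ENSMUSG00000016559) covers chr11:116021912-116027962, both on the minus strand. The labels give mm9 as the genome build of the counts, so these positions are for orientation only. Both coding sequences are 411 bases long and encode the same protein, with 0 amino acid differences, but they share only 316 of 411 bases (76.9%). The longest stretch that their main transcripts have in common is 23 bases, which bears on how far reads of one gene can be counted on the other. The processed sequences H3f3c, H3f3a-ps1 and H3f3a-ps2 have no row in the table and share runs of 267, 110 and 155 bases with the H3f3a transcript, against 23 bases each with that of H3f3b. The codons of residues 121 to 135 are shown because they hold the mutated positions. They run 5′ to 3′ on the coding strand in the GENCODE reference of GRCm38, with the codons of L126 and I130 in capitals and residues counted without the initiator methionine.
H3f3a: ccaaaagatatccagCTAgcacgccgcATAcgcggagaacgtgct
H3f3b: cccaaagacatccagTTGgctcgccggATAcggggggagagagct
Hist1h3a: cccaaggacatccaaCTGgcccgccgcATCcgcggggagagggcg
These 45 bases differ at 11 positions between the H3.3 genes. Hist1h3a (chr13:23761853-23762386, minus strand), a clustered H3 gene that comes up again in the H3.3 lines, differs from H3f3a at 12 and from H3f3b at 9 of them. All of these genes encode leucine and isoleucine at the capitalised codons. The DNA sequence of the H3.3 transgenes is not given in the sources used here, and the table has no row for a transgene.

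The proteins differ in the stretch that histone chaperones use to tell H3.3 from canonical H3. It is shown for residues 82 to 95, with the codons of residues 87, 89 and 90 in capitals.
H3f3a: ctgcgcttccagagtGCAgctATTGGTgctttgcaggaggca
H3f3b: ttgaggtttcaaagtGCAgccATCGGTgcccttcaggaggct
Hist1h3a: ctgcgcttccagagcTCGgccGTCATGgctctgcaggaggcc
Relative to H3.3, the protein of Hist1h3a carries S31A, A87S, I89V, G90M and S96C, with the residue of H3.3 first. H3f3a and H3f3b differ at 11 of these 42 bases without a change of protein, and Hist1h3a differs from H3f3a at 11 and from H3f3b at 15.

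Libraries held between 15463625 and 21396585 expected counts, and levels are given as CPM, expected counts per 1000000 counts of the library. Differences between lines, as log2 fold changes, come from edgeR's quasi-likelihood test with median-of-ratios scaling over 13201 genes. A gene was called where the Benjamini-Hochberg adjusted p was under 0.05 and the change was at least 2-fold. Statements that the libraries of different lines did not overlap are descriptions of 2 libraries per line. The share of all genes that separate in this way is not given, so they are no test. Of 8 embryonic stem cell markers, 7 had a row and all 7 were above 1 CPM in every library, with sums between 5000 and 7230 CPM. The 6 fibroblast markers summed to between 4.07 and 41.8 CPM, and the 5 primitive endoderm markers to between 2.9 and 13.3 CPM. In bulk RNA, fewer cells that express a gene and less RNA per cell cannot be told apart.

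H3f3a was abundant in the Daxx lines and close to absent in every library of the H3.3 lines. It was measured at 460 and 390 CPM in Daxx-/- cells and at 458 and 498 CPM in Daxx-/-;WT cells. In the libraries labelled H3.3 KO it was at 5.36 and 11.4 CPM. The H3.3 KO;WT libraries had 3.58 and 4.54 CPM, and those with L126A-I130A H3.3 had 5.04 and 2.94 CPM. The highest H3.3 library thus lay far below the lowest Daxx library. H3.3 KO cells had 1.97% of the mean H3f3a level of Daxx-/- cells, a log2 fold change of -5.76 (SE 0.39, n = 2 per line, edgeR adjusted p = 0.000252), which is a 54.3-fold lower level. Without H3.3 KO replicate 2, which had the most H3f3a of the H3.3 lines, the log2 fold change was -6.38. This comparison crosses strains, and 11.7% of all genes tested were called in it.

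The remaining H3f3a reads were few but above 0. They came to 91.71 and 176.03 expected counts in the H3.3 KO libraries, to 56.99 and 75.43 with WT H3.3 and to 77.96 and 51.85 with the mutant. Whether they came from the targeted allele, a pseudogene or, in the transduced lines only, a transgene was not tested. H3f3a was not higher with either H3.3 transgene. Against H3.3 KO it differed by -1.01 on the log2 scale (SE 0.37, adjusted p = 0.292) with WT H3.3 and by -1.0 (SE 0.37, adjusted p = 0.219) with L126A-I130A H3.3, and neither passed the test. All 4 transgenic libraries were below both H3.3 KO libraries, but the replicates of H3.3 KO alone differed 2.12-fold. The H3.3 KO libraries serve as control in both. Between the transgenes the log2 difference was 0.00 (SE 0.40, 95% interval -0.89 to 0.90), an interval that leaves room for close to a 2-fold change either way.

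H3f3b showed another pattern. It was at 293 and 388 CPM in Daxx-/- cells and at 110 and 85.1 CPM in Daxx-/-;WT cells. The libraries labelled H3.3 KO had the highest values, 525 and 749 CPM. H3.3 KO;WT libraries had 202 and 144 CPM, and those with L126A-I130A H3.3 had 371 and 336 CPM. Transcripts counted on H3f3b were thus abundant in cells labelled as lacking H3.3. These are RNA levels, and by immunoblot the paper found no H3.3 protein in its H3.3 KO mESCs. The labels and methods do not say which part of H3f3b was removed, and a value per gene does not show whether the transcript was intact, so this row does not check the label. In order of the mean, H3f3b was 637 ± 158 CPM in H3.3 KO, 353 ± 24.7 in H3.3 KO;L126A-I130A, 341 ± 67.0 in Daxx-/-, 173 ± 40.8 in H3.3 KO;WT and 97.3 ± 17.3 in Daxx-/-;WT (SD, n = 2). H3.3 KO;L126A-I130A and Daxx-/- overlapped, and no other neighbours in this order did.

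**Figure D1:**
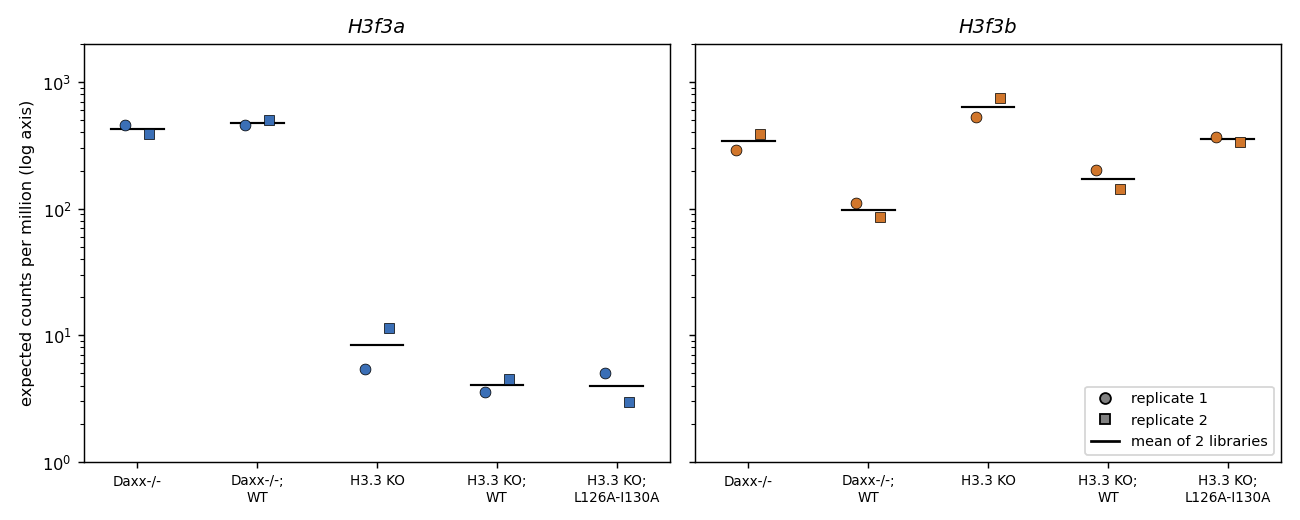
Levels of H3f3a (left) and H3f3b (right) in CPM on a log axis, by line. Each point is 1 library and the bar is the mean of the 2 libraries. H3f3a lies at 390 to 498 CPM in the Daxx lines and at 2.94 to 11.4 CPM in the H3.3 lines, while H3f3b is highest in H3.3 KO and lower in both lines that carry a WT transgene.

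H3f3b fell with the DAXX transgene. The log2 fold change in Daxx-/-;WT against Daxx-/- was -1.79 (SE 0.26, 95% interval -2.37 to -1.21, adjusted p = 0.0244), a level 3.46-fold lower, and both rescued libraries were below both Daxx-/- libraries. Of all genes tested, 1.08% were called in this comparison. H3f3a, which encodes the same protein, had a log2 fold change of 0.17 (SE 0.31, 95% interval -0.53 to 0.86, adjusted p = 0.78), and its libraries overlapped in range. The call of H3f3b was lost when the 4 libraries were fitted alone (adjusted p = 0.128). It was also lost without Daxx-/- replicate 2 (0.0547), Daxx-/-;WT replicate 1 (0.189) or 2 (0.102), or H3.3 KO;WT replicate 1 (0.0517) or 2 (0.0507), with log2 fold changes between -2.04 and -1.58 over all 10 libraries left out in turn.

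H3f3b also fell with WT H3.3. The log2 fold change in H3.3 KO;WT against H3.3 KO was -1.84 (SE 0.26, 95% interval -2.42 to -1.26, adjusted p = 0.0311), a level 3.58-fold lower, and both H3.3 KO;WT libraries were below both H3.3 KO libraries. Of all genes tested, 0.25% were called. The call held in every other setting tried apart from leaving out libraries, where log2 fold changes ran from -2.14 to -1.57. It was lost without H3.3 KO replicate 1 (adjusted p = 0.0996) or 2 (0.261), H3.3 KO;WT replicate 1 (0.223) or 2 (0.348), H3.3 KO;L126A-I130A replicate 1 (0.0568) or 2 (0.0542), or Daxx-/-;WT replicate 1 (0.0501).

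With L126A-I130A H3.3, H3f3b had a log2 fold change of -0.79 against H3.3 KO (SE 0.25, 95% interval -1.35 to -0.23, edgeR adjusted p = 0.164), and it was not called. DESeq2 gave -0.79 with an adjusted p of 0.0447, which is no call either since the change is under 2-fold. Both mutant libraries were below both H3.3 KO libraries, a separation that is no test with 2 libraries per line. Of all genes, 0.788% were called in this comparison. Against H3.3 KO;WT, the mutant line was higher by 1.05 on the log2 scale (SE 0.25, 95% interval 0.48 to 1.62, adjusted p = 0.123). Both of its libraries, at 371 and 336 CPM, lay above the WT libraries at 202 and 144 CPM, but the difference did not pass edgeR's test over all genes, of which 0.515% were called. It did pass with DESeq2 (adjusted p = 0.00399). H3.3 KO cells had more H3f3b than Daxx-/- cells by 0.83 on the log2 scale (SE 0.25, edgeR adjusted p = 0.0422). This is 1.77-fold and under the 2-fold limit of a call. With the 4 libraries fitted alone edgeR's adjusted p was 0.079, and leaving out 1 library at a time gave 0.56 to 1.06. The comparison crosses strains, and 11.7% of all genes tested were called in it.

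**Figure D2:**
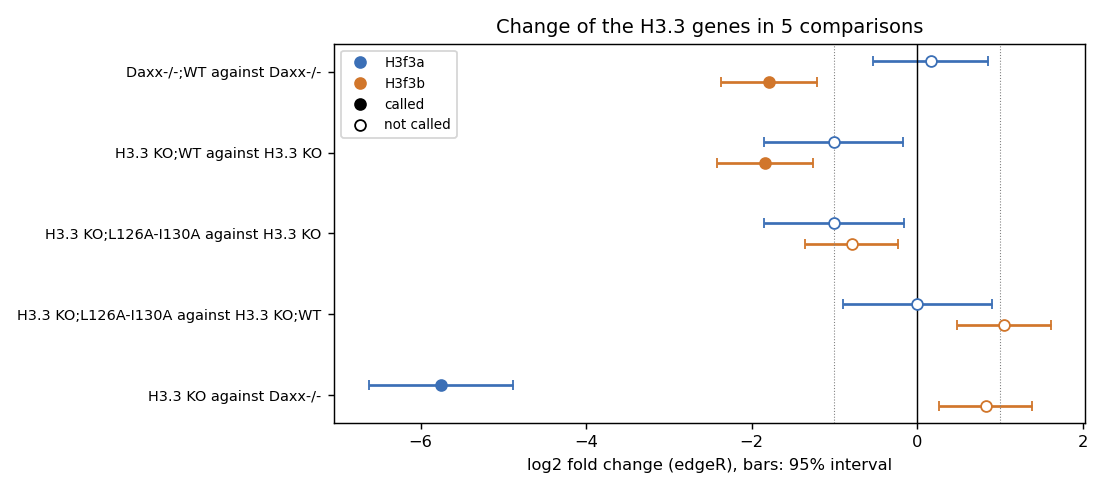
Log2 fold changes (edgeR) of H3f3a and H3f3b in 5 comparisons of lines, with 95% intervals. Filled points were called (adjusted p under 0.05 and at least 2-fold, the latter shown by dotted lines). H3f3b lies near -1.8 with the DAXX transgene and with WT H3.3, and H3f3a lies at -5.76 in H3.3 KO against Daxx-/- cells.

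The change of H3f3b with WT H3.3 and the change with DAXX were compared directly. They differed by -0.05 on the log2 scale (SE 0.35, 95% interval -0.85 to 0.74, adjusted p = 0.96), so a difference of up to 0.85 in size is within the error. The change with the mutant and the change with DAXX differed by 1.00 (SE 0.35, 95% interval 0.20 to 1.79, adjusted p = 0.368). For H3f3a, each H3.3 transgene differed from DAXX by -1.17 (SE 0.48 in both, adjusted p = 0.328 for WT and 0.418 for the mutant). None of these passed the test. The comparisons with WT and mutant H3.3 share their control libraries.

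The balance of the genes was given by the share of H3f3a in the reads of both. H3f3a made up 61.1% (95% Wilson interval 60.3 to 61.9) and 50.1% (49.3 to 50.9) in the Daxx-/- libraries. With the DAXX transgene it made up 80.7% (80.0 to 81.4) and 85.4% (84.7 to 86.1). The rescued libraries lay above both Daxx-/- libraries, and the replicates of each line differed by more than these intervals, which cover counting error only. In the H3.3 lines the share lay between 0.869% and 3.05%. Per kilobase of exon, where the genes can be compared, H3f3a was 51.5% ± 7.85 of both in Daxx-/- and 80.7% ± 3.75 in Daxx-/-;WT (SD, n = 2). In the H3.3 KO libraries H3f3b exceeded H3f3a per kilobase of exon 115-fold and 77.5-fold, against 0.75-fold and 1.17-fold in Daxx-/-. These lengths are of the intact genes, and the part removed in H3.3 KO is not given. Per kilobase of main transcript the values were 140-fold and 93.9-fold, against 0.908-fold and 1.42-fold in Daxx-/-.

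The reads of both genes together did not drop to a low level in H3.3 KO cells. The sum was 753 and 778 CPM in Daxx-/- and 568 and 583 CPM in Daxx-/-;WT. It was 531 and 760 CPM in H3.3 KO, whose replicates differed 1.43-fold and lay on either side of both Daxx-/-;WT libraries. With WT H3.3 it was 205 and 149 CPM, and with the mutant 376 and 339 CPM. The mean of H3.3 KO was 84.3% of that of Daxx-/-, almost all of it from H3f3b. The lowest sums were in the line with a WT H3.3 transgene, at 27.4% of the H3.3 KO mean, followed by the mutant line at 55.3%, and neither line overlapped with H3.3 KO. The sum is given as a description of RNA and was not tested, and by immunoblot the paper found no H3.3 protein in H3.3 KO cells.

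Neither member therefore held a surplus of reads in the lines with an H3.3 transgene, and the clustered H3 genes were examined as the other H3 sequences in the table. Of 12 listed, 11 had a row and 7 passed the filter on low counts. Summed over the 11 rows, they were at 16.5 and 13.6 CPM in Daxx-/-, 5.01 and 4.41 CPM in Daxx-/-;WT and 16.1 and 23.3 CPM in H3.3 KO. With WT H3.3 the sum was 185 and 211 CPM, and with the mutant it was 170 CPM in each library. Both lines with an H3.3 transgene were thus far above the other 3 lines. The means were 1000% (WT) and 862% (mutant) of that in H3.3 KO.

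**Figure D3:**
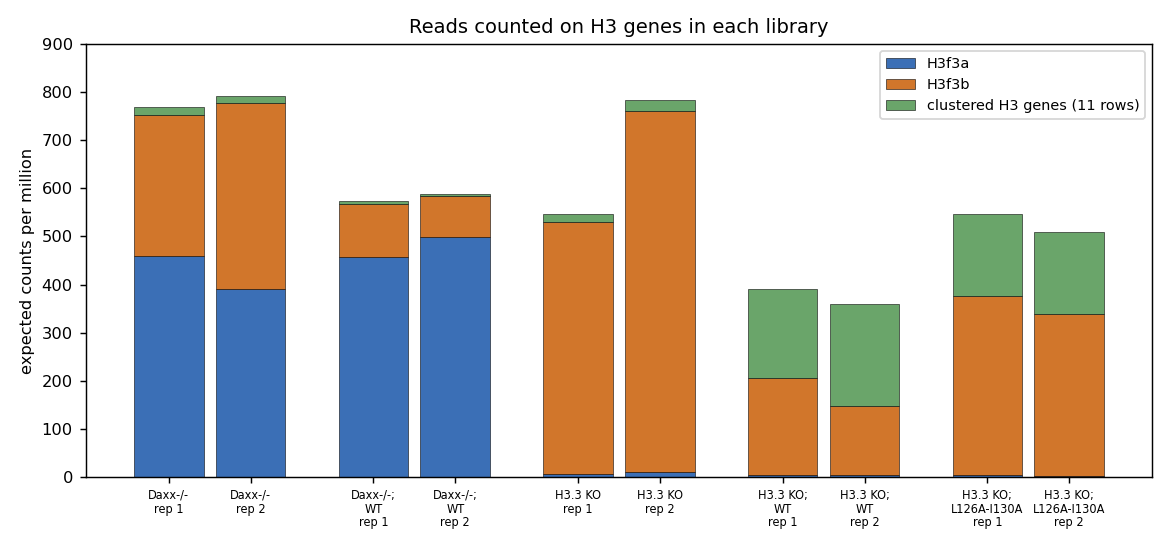
CPM on H3f3a, H3f3b and 11 clustered H3 genes, stacked for each of the 10 libraries. Values are not divided by gene length. H3f3a is a large part of the bars of the Daxx lines only, and the clustered genes take 170 to 211 CPM in the lines with an H3.3 transgene against 4.41 to 23.3 CPM elsewhere.

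Of the 7 clustered genes tested, 3 rose with WT H3.3 (Hist1h3a, Hist1h3b and Hist1h3h), in a comparison in which 0.0379% of all genes were called higher, and the same 3 rose with the mutant, where 0.182% were called higher. Hist1h3a, which encodes canonical H3, went from 0.911 and 1.55 CPM in H3.3 KO to 83.1 and 93.5 CPM with WT H3.3 and to 73.8 and 73.7 CPM with L126A-I130A H3.3. Its log2 fold changes were 6.18 (SE 0.28, adjusted p = 4.65e-05) and 5.95 (SE 0.28, adjusted p = 6.21e-05). Hist1h3h went from 5.0 and 4.87 CPM to 53.0 and 70.9 CPM with WT H3.3 and to 57.9 and 61.2 CPM with the mutant. Hist1h3b reached 23.0 and 24.2 CPM with WT H3.3 and 13.5 and 9.24 CPM with the mutant, from 0.754 and 1.19 CPM. These clustered genes were not called different between the transgenes, and the log2 difference of Hist1h3a was -0.24 (95% interval -0.70 to 0.23). Hist1h3b was at a lower level in both mutant libraries than in both WT libraries, with a log2 difference of -1.02 (95% interval -1.82 to -0.22, adjusted p = 0.277).

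The other clustered genes did not move as one. Hist1h3i was at 15.3 and 12.2 CPM with WT H3.3 and at 13.4 and 12.2 CPM with the mutant against 0.231 and 1.74 CPM in H3.3 KO, with adjusted p-values of 0.143 and 0.0706. Hist1h3d was at 3.98 and 5.79 CPM, and at 5.21 and 10.2 CPM, against 1.15 and 1.52 CPM (adjusted p = 0.181 and 0.0543). Hist1h3c was lower in both lines, with log2 fold changes of -0.95 and -1.39 that were not called. Hist2h3b, at most at 1.71 CPM in any library, had log2 fold changes of -1.94 (SE 1.21) and -0.29 (SE 1.08) and was not called either. Over the 7 genes the median log2 fold change was 3.68 (WT) and 3.63 (mutant), against 0.02 and 0.03 over all genes tested. With the DAXX transgene, where 0.795% of all genes were called lower, 1 of the 7 was called lower, Hist1h3a, from 1.99 and 2.05 CPM to 0.551 and 0.282 CPM (log2 fold change -2.19, SE 0.34, adjusted p = 0.0272), and the median was -2.02 against -0.02 over all genes. DESeq2, which called more genes in all, called 5 of the 7 lower with DAXX (3.01% of all genes), 5 higher with WT H3.3 (0.386%) and 5 higher with the mutant (0.651%), among them Hist1h3d and Hist1h3i each time. With DAXX, edgeR and limma called Hist1h3a alone of the 7. The 5 rows that DESeq2 called there held few counts in the Daxx-/-;WT libraries, between 0.0 (Hist1h3i) and 27.92 (Hist1h3h).

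Reads can be shared among these rows. Each clustered transcript has a run of at least 215 bases in common with another one, whereas with the H3f3a and H3f3b transcripts the longest runs are 14 to 17 and 17 to 21 bases. Which of the clustered genes a read was assigned to is therefore uncertain, so calls of several of them need not be separate changes. Whether reads of the H3.3 transgenes were counted on these rows was not tested. The rise of Hist1h3a held without each library in turn. That of Hist1h3b with WT H3.3 was lost without H3.3 KO replicate 1 (adjusted p = 0.0996) or 2 (0.0725) or H3.3 KO;WT replicate 1 (0.0658) or 2 (0.0638), and with the mutant without H3.3 KO replicate 1 (0.0758) or 2 (0.106) or mutant replicate 1 (0.105). That of Hist1h3h with WT H3.3 was lost without H3.3 KO replicate 1 (0.0556) or 2 (0.0636). The fall of Hist1h3a with DAXX rested on few counts, and its log2 fold change moved to -2.84 without Daxx-/-;WT replicate 1 and to -1.09 with limma on log2(CPM + 1), a scale that understates low genes. Its call was lost when the 4 libraries were fitted alone (0.318), and without Daxx-/- replicate 2 (0.0632), Daxx-/-;WT replicate 1 (0.189) or 2 (0.102), or H3.3 KO;WT replicate 1 (0.0656) or 2 (0.0637).

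**Figure D4:**
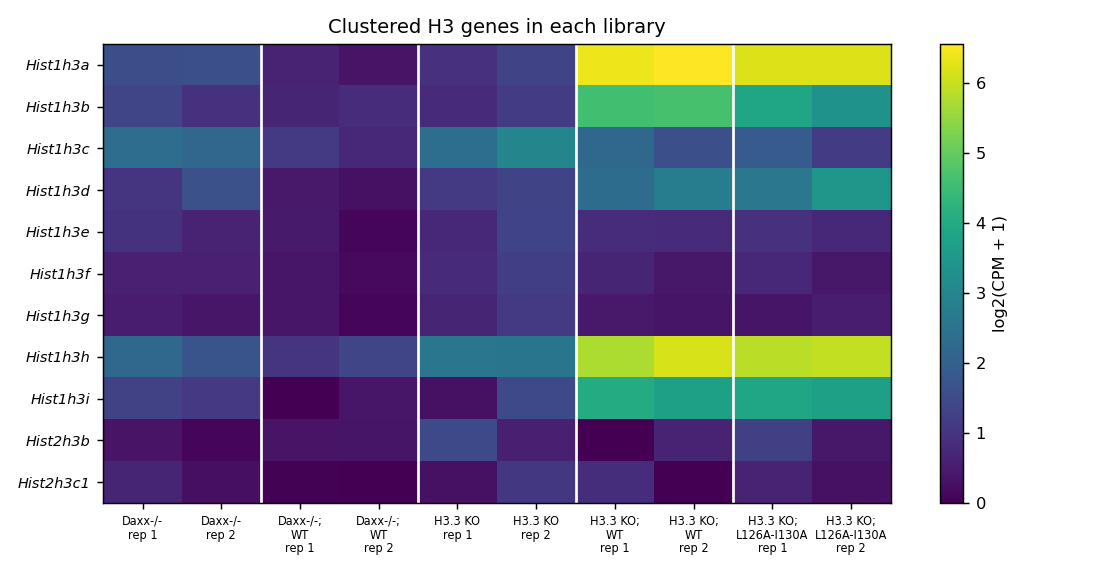
Levels of the 11 clustered H3 genes in the 10 libraries as log2(CPM + 1), with white lines between the 5 lines. Hist1h3a, Hist1h3b, Hist1h3h and Hist1h3i are brighter in all 4 libraries with an H3.3 transgene than in the 6 others, and Hist1h3c is not.

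Of 8 genes for proteins that deposit H3.3 (Daxx, Atrx, Hira, Ubn1, Ubn2, Cabin1, and the H3-H4 chaperones Asf1a and Asf1b), Daxx alone was called with the DAXX transgene, from 77.3 and 74.4 CPM to 195 and 208 CPM (log2 fold change 1.41, adjusted p = 0.0212). The transgene is murine DAXX, so its reads could be counted on this row, and their part in the rise was not tested. Of all genes tested, 1.08% were called in this comparison. What part of Daxx was removed in the Daxx-/- line is not given in the sources used here, and its row held reads in both libraries. This call was lost with the 4 libraries fitted alone (0.128), and without Daxx-/- replicate 2 (0.0547), Daxx-/-;WT replicate 1 (0.189) or 2 (0.0798), or H3.3 KO;WT replicate 1 (0.0585) or 2 (0.0568). With the H3.3 transgenes, 0 of the 8 were called by edgeR, DESeq2 or limma. At an unadjusted p under 0.05 there were 2 (Cabin1 and Ubn1) with WT H3.3 and 1 (Daxx) with the mutant. The share of all genes under that unadjusted cut is not given here, so these counts are not read as a result. At the shares of all genes called by edgeR, 0.25% and 0.788%, a count of 0 among 8 is near the background. Daxx was at 63.9 CPM in both H3.3 KO libraries, 61.7 and 61.5 CPM with WT H3.3 and 96.7 and 70.0 CPM with the mutant, and it was not called in either comparison. Atrx, the partner of DAXX, had log2 fold changes of -0.18 and -0.03, and Hira -0.31 and -0.04.

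Genes next to H3f3b were examined for changes of their own. The 3 nearest genes on each side with a row (Galk1, Itgb4, Sap30bp, Unk, Unc13d and Wbp2) were all tested, and 0 of the 6 were called by edgeR or DESeq2 in any of the 5 comparisons, in which edgeR called between 0.25% and 11.7% of all genes, so that a count of 0 is near the background in most of them. At an unadjusted p under 0.05 there were at most 3 of 6 in a comparison (Galk1, Unk and Wbp2 with the mutant). Unk and Wbp2 were also under it with WT H3.3. The share of all genes under this unadjusted cut is not given here, so these counts are not read as a result. Limma called Sap30bp in H3.3 KO against Daxx-/- cells. There it called 1418 of the 13201 genes on log2(CPM + 1) and 1507 on log2(CPM + 0.1). With WT H3.3 the 6 neighbours had a median log2 fold change of -0.27 and with DAXX of -0.05. The antisense RNA H3f3aos and the noncoding RNA Gm17275 overlap H3f3a in the annotation and have no row. The library kit does not mark strand, so reads of H3f3a and of its antisense RNA cannot be told apart where they overlap.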

How the data were processed

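RNA-Seq libraries of polyA RNA were prepared from 10 cultures with a kit that does not mark strand. Per the labels, the authors aligned reads with Bowtie to mm9 and estimated expression with RSEM. The deposited values, although named TPM, are RSEM expected counts per gene, since libraries sum to between 15463625 and 21396585. Versions and the annotation are not given in the sources used here. Groups came from the genotype labels. The study calls the 2 replicates of each line biological, but no source says how they were kept apart, so p-values measure the spread between these libraries.

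Expected counts were rounded and fitted with edgeR (version 4.0.16, R 4.3.3) in 1 quasi-likelihood model of all 10 libraries with median-of-ratios factors (0.936 to 1.04) over the 13201 genes that reached 1 CPM in 2 or more libraries. p-values were adjusted over all genes of a comparison (Benjamini-Hochberg). The standard error is the log2 fold change divided by the square root of F, and 95% intervals use the same spread (dispersion 0.0522 in common, with 5 residual and 4.07 prior degrees of freedom). CPM levels are scaled to library totals only. Alternatives were TMM factors, library totals, no filter, DESeq2 (1.42.0), limma (3.58.1) on log2(CPM + 1) and log2(CPM + 0.1), each comparison alone, a replicate block, and each library left out. Direct comparisons of the changes with different transgenes were added after the data were seen.

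Genes named are the H3.3 genes, a list of H3.3 chaperones, the clustered H3 genes, the 3 nearest genes on each side of H3f3b (those of H3f3a are not reported here), and the 5 genes most like each H3.3 gene by Pearson correlation of log2(CPM + 1). The members and lists were chosen with earlier results of these data known. Positions and sequences are from GENCODE (GRCm38).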

Additional observations from a re-analysis of the deposited data

How the results depend on the processing

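With 2 libraries per line, 1 library can decide a call, and depth limits H3f3a in the H3.3 lines, which had at most 176.03 counts. Causes of the following changes were not tested unless given. The fall of H3f3b with DAXX was -1.77 (adjusted p = 0.128) with its 4 libraries fitted alone. H3f3b in the mutant against H3.3 KO;WT was 1.05 and passed with DESeq2 (adjusted p = 0.00399). Against H3.3 KO the mutant was at -0.79 with DESeq2 (adjusted p = 0.0447), under the 2-fold limit. H3f3a in the mutant against H3.3 KO;WT, at 0.00, turned to -0.03 with library totals, -0.002 with a replicate block, -0.04 with pseudocount 1 and -0.06 with pseudocount 0.1, all within its error. The H3f3a plus H3f3b sum became 783 CPM in Daxx-/- with median-of-ratios factors, and 590 CPM (588 with TMM) in Daxx-/-;WT. Per kilobase of main transcript, a unit chosen after seeing the data, the H3f3a share was 46.8% in Daxx-/-, 77.5% in Daxx-/-;WT and 0.881% in H3.3 KO.

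Leaving out 1 library at a time gave log2 fold changes of -2.04 to -1.58 for H3f3b with DAXX, -2.14 to -1.57 with WT H3.3, -1.02 to -0.52 with the mutant, 0.80 to 1.35 for mutant against WT and 0.56 to 1.06 for H3.3 KO against Daxx-/-. For H3f3a they were -0.01 to 0.36, -1.45 to -0.38, -1.49 to -0.38, -0.49 to 0.40 and -6.38 to -5.32, the last called each time. On log2(CPM + 1), which understates low genes, Hist1h3a was 5.33 with WT H3.3 and 5.07 with the mutant, and Hist1h3b 3.66 and 2.64. H3f3a with DAXX turned without Daxx-/- replicate 2 (-0.01). Hist1h3h in the mutant against H3.3 KO;WT turned from -0.03 to 0.16 without H3.3 KO;WT replicate 2, with a range from -0.20 to 0.16.

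Genes called numbered 143 with DAXX, 33 with WT H3.3, 104 with the mutant, 68 between the transgenes and 1543 for H3.3 KO against Daxx-/-. In the first 4, in this order, they were 233, 53, 203 and 125 without the filter, 531, 213, 444 and 323 with DESeq2, and 621, 105, 461 and 234 with a replicate block. Fitted alone, the 5 comparisons gave 1, 350, 50, 22 and 835. Leaving out 1 library moved them to between 1 (either Daxx-/-;WT library) and 1091 (Daxx-/- replicate 1) with DAXX, 2 (H3.3 KO replicate 2 or H3.3 KO;WT replicate 2) and 61 (either Daxx-/- library) with WT H3.3, 2 (mutant replicate 1) and 234 (Daxx-/- replicate 2) with the mutant, 0 (mutant replicate 1) and 102 (Daxx-/- replicate 2) between the transgenes, and 711 (H3.3 KO replicate 2) and 2116 (Daxx-/- replicate 1) for H3.3 KO against Daxx-/-. With pseudocount 1 WT H3.3 had 60, and with library totals mutant against WT had 39. Replicate numbers are shared by all lines, and no source says that a number marks a shared batch. The replicate differences of lines correlated above 0.1 in 7 of 10 pairs of lines, among them all 6 without H3.3 KO (0.255 to 0.565), and not in 3 of the 4 with H3.3 KO (lowest -0.0487), so a pairing was not established and the block was kept as an alternative. With the replicate block H3f3b was -1.80 with DAXX (adjusted p = 0.00811) and -1.86 with WT H3.3 (0.0166). Hist1h3d and Hist1h3i passed with the mutant under the block (0.0161 and 0.0273).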

Other observations

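Genes whose levels followed those of H3f3a and H3f3b most closely are given as a description over the 10 libraries, which share lines and strain. For H3f3a they were Tagap (Pearson r = 0.988 on log2(CPM + 1)), Cxx1a (0.987), Ndufa2 (0.986), Itgb3bp (0.986) and Slfn8 (0.985). All 5, picked for following H3f3a in these libraries, were lower in the 3 H3.3 lines than in both Daxx lines, the split that also separates the strains. Slfn8, of the Schlafen family, had means of 20.5 and 15.9 CPM in Daxx-/- and Daxx-/-;WT and of 0.713, 0.598 and 0.239 CPM in the H3.3 lines. Ndufa2, a subunit of respiratory complex I, went from 83.1 and 76.6 CPM to 39.8, 38.6 and 40.1 CPM.

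For H3f3b they were Nup62cl (r = 0.954), Parp9 (0.946), Psme4 (0.943), Rhbdl3 (0.935) and Tspan2 (0.929). All 5 had their highest mean in H3.3 KO and their lowest in Daxx-/-;WT, as H3f3b did, which largely follows from how they were picked. Psme4, which encodes the proteasome activator PA200, known for the degradation of acetylated histones, had means of 550 CPM in Daxx-/-, 302 in Daxx-/-;WT, 846 in H3.3 KO, 364 in H3.3 KO;WT and 649 CPM in H3.3 KO;L126A-I130A. Tspan2, a tetraspanin, went from 27.3 to 5.20 CPM between the Daxx lines and from 49.2 CPM in H3.3 KO to 10.1 CPM in H3.3 KO;WT and 23.8 CPM in H3.3 KO;L126A-I130A.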
